A study of Mus musculus with 6 samples.

Results

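Hyaluronan is a long, unbranched sugar polymer that fibroblasts extrude into the matrix around them. It is polymerised at the plasma membrane by hyaluronan synthases from UDP-glucuronic acid and UDP-N-acetylglucosamine, cut by hyaluronidases and related proteins, and held in place by proteins that bind it, among them the proteoglycan versican and the receptor CD44. In the kidney it is abundant in the inner medulla, and it accumulates in the cortical interstitium during inflammation and scarring.

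To describe how this system stood in kidney fibroblasts exposed to Th17 cells, the helper T cells that secrete interleukin-17, the 9 genes Has1, Has2, Has3, Hyal1, Hyal2, Cemip, Tnfaip6, Vcan and Cd44 were taken by symbol from a table of 34745 gene rows, and each symbol matched 1 row. The genes were chosen for their role, although earlier results of these data were known. RNA came from primary renal fibroblasts of wild-type (WT) mice. In 3 libraries the fibroblasts were cultured alone, with the treatment given as none. In the other 3 libraries (Th17 coculture) they had attached for 6 h and were then kept for 24 h beneath a 0.4 μm transwell insert holding induced Th17 cells, and the fibroblasts of the lower chamber were collected. All fibroblasts were grown out of trypsin- and collagenase-digested kidney in complete fibroblast medium, with no sort for a fibroblast marker described. Neither the labels nor the methods say whether lone cultures had an empty insert or Th17 medium, or whether replicate libraries are separate cultures or mice. The errors and p-values therefore measure only how much these libraries differ from each other.

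Library totals ranged from 12050529 to 13209581 counts. The groups separated on the first principal component of log2 CPM (counts scaled to the same total in each library), which held 76.8% of the variance, and no library lay apart from its own group, with r of at least 0.98 within a group and at most 0.94 between groups. All 10 fibroblast markers were detected and tested, of which 8 were lower and 1 higher with Th17 cells, and their summed level was 34084 to 35969 CPM in lone fibroblasts and 14238 to 15938 CPM after coculture. Of 10 macrophage and leukocyte markers 5 were tested, all lower, and their summed level was 47.8 to 49.7 CPM in lone fibroblasts and 8.22 to 10.4 CPM after coculture, where Adgre1 and Ptprc were at 0 counts in each library. Of 10 T cell markers 8 had 3 counts or fewer in every library, with Cd3d, Cd2, Il17a, Il17f and Ccr6 at 0 throughout. Cd3e reached 6 counts in cocultured replicate 3. Trac, the only T cell marker tested, had 20 to 41 counts a library and was not called (means 2.64 and 2.69 CPM). The summed level of 5 endothelial markers was 6.79 to 7.52 CPM in lone fibroblasts and 1.60 to 2.75 CPM after coculture. Most of that difference came from Kdr, with means of 5.55 and 0.126 CPM. Pecam1, the other endothelial marker tested, was not called, with means of 1.24 and 1.32 CPM. The summed level of 6 epithelial markers was 1.40 to 2.69 CPM in lone fibroblasts and 0.837 to 1.18 CPM after coculture. Both Xist (2215 to 3149 counts) and the Y-linked Ddx3y (749 to 969 counts) were present in all 6 libraries, as in a mix of female and male cells.

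Of the 9 genes, 8 had enough counts to be tested. With Th17 cells, Has1, Has2, Tnfaip6 and Vcan were lower, Cemip and Hyal2 were higher, and Hyal1 and Cd44 did not pass the threshold of an adjusted p below 0.05 (edgeR quasi-likelihood test, Benjamini-Hochberg adjustment over 13088 genes). Thus 2 of 8 tested genes were called higher, against 17.1% of all genes tested, and 4 of 8 were called lower, against 20.0%. With the study's further limit of a fold change above 2, Cemip was higher (3.87% of all genes) and Has1 and Tnfaip6 were lower (7.78% of all genes). For 7 of the 8 genes the groups were fully separate, a pattern found in 50.4% of all genes tested. The median log2 fold change of the 8 genes was −0.50, and that of all genes tested was 0.00. Because whole cultures were sequenced, fewer cells of a type and less RNA per cell cannot be told apart in any of these values. Markers of macrophages and fibroblasts and the endothelial marker Kdr moved in the same comparison, and their part in the changes below was not tested.

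**Figure D1:**
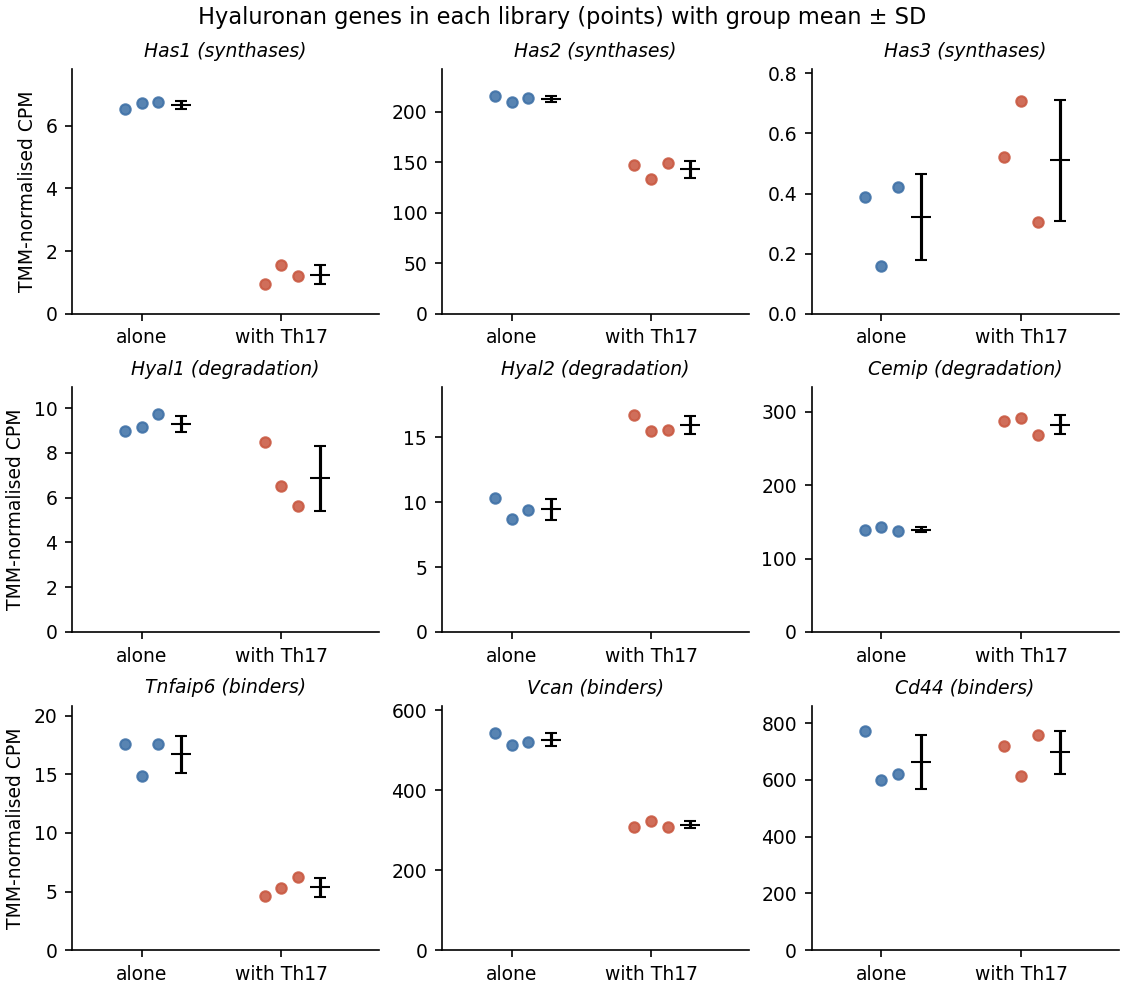
Level of each of the 9 genes in TMM-normalised CPM (vertical axes, each from 0) in 3 libraries of lone fibroblasts (blue) and 3 of fibroblasts cocultured with Th17 cells (red). Bars give the mean ± SD. The groups stand apart for every gene except Has3 and Cd44, upward for Hyal2 and Cemip and downward for Has1, Has2, Hyal1, Tnfaip6 and Vcan.

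To show the DNA in front of the genes whose levels moved by more than the fold limit, the promoter windows of RefSeq (GRCm38.p6, 250 bases before to 50 after the start site) were used. Windows matched 7 of the 9 genes. The stretches below are read 5′ to 3′ on the gene's strand and stop where the annotated transcript begins. Capitals mark letters that match a searched motif. The Has1 stretch lies at chr17:17855206-17855438 on the minus strand, that of Cemip at chr7:84086506-84086755 on the minus strand, and that of Tnfaip6 at chr2:52037863-52038008 on the plus strand.
Has1: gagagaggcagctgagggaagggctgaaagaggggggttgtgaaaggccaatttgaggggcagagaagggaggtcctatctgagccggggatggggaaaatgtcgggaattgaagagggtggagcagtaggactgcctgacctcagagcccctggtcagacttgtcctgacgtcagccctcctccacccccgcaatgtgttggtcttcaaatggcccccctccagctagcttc
Cemip: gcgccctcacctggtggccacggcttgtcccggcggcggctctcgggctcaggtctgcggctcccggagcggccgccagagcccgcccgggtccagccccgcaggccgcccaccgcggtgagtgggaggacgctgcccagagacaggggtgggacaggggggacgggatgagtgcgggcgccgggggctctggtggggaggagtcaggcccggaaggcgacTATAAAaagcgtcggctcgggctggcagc
Tnfaip6: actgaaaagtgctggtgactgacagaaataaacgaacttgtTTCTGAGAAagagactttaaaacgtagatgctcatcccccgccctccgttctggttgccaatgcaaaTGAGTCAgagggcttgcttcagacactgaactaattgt

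The 3 windows of 300 bases, which reach past the printed stretches into the transcripts, differed in composition. For Tnfaip6 only 146 bases are printed, so its values below do not describe the printed stretch alone. The 300-base Cemip window was 73.7% G and C with 33 CpG pairs, that of Has1 57.0% with 5 pairs, and that of Tnfaip6 47.0% with 12 pairs, while the median over 32851 windows was 52.7% and 7 pairs. The Cemip capitals are TATAAA, 29 bases before the start site, letters held on some strand by 13.6% of all windows. In Tnfaip6 the first run of capitals matches the STAT pattern TTCNNNGAA (first base at −209, 8.30% of windows) and the second the AP-1 pattern TGANTCA (first base at −142, 7.81% of windows). These matches do not overlap. All positions are counted from the RefSeq start site, which for Tnfaip6, as for Has1, lies inside the annotated transcript. The Tnfaip6 transcript begins at 52038009, and the matches begin at 52037904 and 52037971, so both are nearer to the annotated start. The printed Has1 stretch held none of the letters searched. Its window had a match to the C/EBP pattern TTGCNNAA (10.8% of windows) across the RefSeq start site, at −4. This match (chromosome 17, 17855185 to 17855192) lies inside the annotated Has1 transcript, which begins at 17855205 on the minus strand. Of the other windows, that of Hyal2 held an NF-kB match at −238 (8.46% of windows). This match (chromosome 9, 107568925 to 107568934) lies inside the annotated Hyal2 gene, which begins at 107567945, and not in front of it. The windows of Hyal1, Vcan and Cd44 held no match to any of the 6 patterns. These included an interferon-response pattern found in 3.44% of windows. Both strands were searched. A match describes letters and not a bound site.

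Hyaluronan synthases span the plasma membrane and build the chain while pushing it out of the cell. The family's transcripts were dominated by Has2, and both Has2 and Has1 were lower with Th17 cells. Has2, the main synthase of mesenchymal cells and of the embryonic heart cushions (ENSMUSG00000022367, chromosome 15, 56665627 to 56694539, minus strand), had 215, 210 and 214 CPM in lone fibroblasts and 147, 134 and 149 CPM after coculture. No cocultured library reached the lowest lone library. The mean fell from 213 ± 2.96 to 143 ± 8.42 CPM (SD, n = 3 each), or 1.49-fold lower (edgeR adjusted p = 0.000118, log2 fold change −0.57 with SE 0.06). An antisense gene, Has2os, overlaps Has2 on the opposite strand, but it had at most 12 counts in any library against 1700 or more for Has2.

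Has1, a synthase with a lower affinity for its sugar substrates and often described as inducible by inflammatory cytokines (ENSMUSG00000003665, chromosome 17, 17843328 to 17855188, minus strand), showed the strongest decrease of the 8 genes. Lone libraries held 84, 85 and 80 counts and cocultured libraries 13, 20 and 16. In CPM these are 6.52, 6.71 and 6.76 against 0.966, 1.57 and 1.22. The 3 lone libraries lay close together, and each cocultured library was far below them. The mean fell from 6.67 ± 0.129 to 1.25 ± 0.304 CPM (SD, n = 3 each), or 5.31-fold lower (edgeR adjusted p = 3e-05, log2 fold change −2.41 with SE 0.22), with a 95% interval of −2.90 to −1.92 on the log2 scale. With fewer than 100 counts a library, this size is less exact than that of Has2.

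Has3, a synthase noted for shorter chains (ENSMUSG00000031910, chromosome 8, 106870242 to 106884566, plus strand), was close to the limit of detection. Lone libraries held 5, 2 and 5 counts and cocultured libraries 7, 9 and 4. The groups overlapped, and the gene did not pass the filter on low counts, so a difference was not detectable at this depth. It overlaps Chtf8 on the opposite strand, so some of these few counts may belong to that gene.

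Per length, the synthases stood in the same order in both groups. On the scale of the deposited FPKM (fragments scaled to gene length and library total), Has2 was at 49.1 ± 0.690 and Has1 at 3.12 ± 0.0693 in lone fibroblasts, and at 34.5 ± 2.24 and 0.612 ± 0.146 after coculture. Has1 thus held 5.78, 6.10 and 6.02% of the summed synthase FPKM in the lone libraries and 1.32, 2.32 and 1.63% in the cocultured ones. The 2 sets of shares did not overlap. Has2 held 94.0 ± 0.152% and 98.1 ± 0.567% (SD, n = 3 each). The length that the deposited FPKM implies for Has1, 2090 bases, is shorter than its 4518 bases of annotated exons. With annotated exons the Has1 share was 2.85% in lone fibroblasts and 0.819% after coculture, so the level of the share depends on the gene model, while its decrease was found on both scales.

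Chain breakdown begins outside or at the surface of the cell and ends in the lysosome. Of the 3 genes for it, Cemip and Hyal2 were higher with Th17 cells and Hyal1 was not called. Cemip (ENSMUSG00000052353, chromosome 7, 83932857 to 84086502, minus strand), also called KIAA1199 or HYBID, is needed for hyaluronan depolymerisation by skin and synovial fibroblasts. It had 139, 143 and 137 CPM in lone fibroblasts and 287, 292 and 268 CPM after coculture. Every cocultured library was far above every lone one, and the spread within each group was small. The mean rose from 139.5 ± 2.86 to 282 ± 12.7 CPM (SD, n = 3 each), and the change on the log2 scale was 1.02 with SE 0.06 (edgeR adjusted p = 1.86e-06, the smallest of the 8 genes). The fold change of 2.02 lies just above the limit of 2, and its 95% interval of 1.84 to 2.22 includes that limit. Without cocultured replicate 2 the log2 fold change was 0.99, below the limit, with the call by adjusted p unaltered.

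Across the 6 libraries, the tested genes whose log2 CPM was most like that of Cemip were Gpr149, Flt1 and Epb41l3, each with a Pearson r of 0.999. These values describe 6 points that fall into the 2 groups and carry no test. Flt1 was at 117 CPM in lone fibroblasts and 291 CPM after coculture, Epb41l3 at 222 and 406 CPM, and Gpr149 at 0.0522 and 6.39 CPM.

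Hyal2, a hyaluronidase anchored to the cell surface that cleaves long chains (ENSMUSG00000010047, chromosome 9, 107567945 to 107572779, plus strand), had counts of 133, 110 and 111 when alone and of 225, 197 and 205 with Th17 cells. All cocultured libraries were higher than all lone ones. The mean rose from 9.46 ± 0.819 to 15.9 ± 0.692 CPM (SD, n = 3 each), or 1.68-fold higher (edgeR adjusted p = 0.00098, log2 fold change 0.75 with SE 0.12).

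Hyal1, the lysosomal hyaluronidase that finishes the fragments (ENSMUSG00000010051, chromosome 9, 107576927 to 107581710, plus strand), had 9.0, 9.16 and 9.72 CPM in lone fibroblasts and 8.48, 6.52 and 5.63 CPM after coculture. Cocultured replicate 1 lay close to the lone libraries and the others further below. The mean was 9.30 ± 0.378 CPM in lone fibroblasts and 6.87 ± 1.46 CPM after coculture (SD, n = 3 each), and the log2 fold change of −0.43 (SE 0.17, 95% interval −0.82 to −0.05) missed the threshold after adjustment (edgeR adjusted p = 0.0762). Without cocultured replicate 1 it was −0.61 (edgeR adjusted p = 0.0182), so the call rests on that library. Hyal1 also shares its strand with Naa80 and Hyal3, and how fragments common to these genes were assigned was not stated. Naa80 had 118 to 221 counts and did not pass the threshold (edgeR adjusted p = 0.492, log2 fold change −0.20 with SE 0.21), and Hyal3 had 2 to 16 counts.

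**Figure D2:**
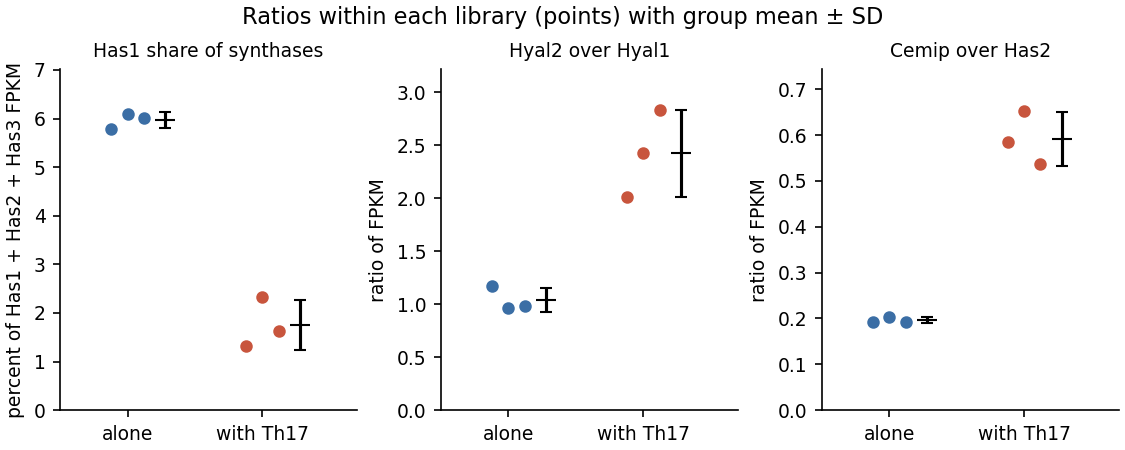
Quantities formed within each library (points) with the group mean ± SD, in lone fibroblasts (blue) and after coculture (red): percent of Has1 in the summed FPKM of the 3 synthases, FPKM of Hyal2 over that of Hyal1, and FPKM of Cemip over that of Has2. In each panel the 3 libraries of a group lie on 1 side of the 3 of the other, and the ratio of Cemip to Has2 goes from between 0.191 and 0.203 to between 0.537 and 0.653.

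Has1 and Has2 were lower while Cemip and Hyal2 were higher, so ratios between genes were formed within each library. The FPKM of Cemip was 0.193, 0.203 and 0.191 times that of Has2 in lone fibroblasts and 0.585, 0.653 and 0.537 times that of Has2 after coculture. The FPKM of Hyal2 was 1.17, 0.968 and 0.985 times that of Hyal1 in lone fibroblasts and 2.01, 2.42 and 2.83 times that of Hyal1 after coculture. In both cases the groups did not overlap. For these ratios that outcome and the p-value below were fixed in advance. Cemip and Hyal2 were already fully separate upward, and Has2 and Hyal1 downward. The ratios thus describe sizes and add no evidence to the single genes. Of 6 such quantities compared (also the Has1 share, and Vcan, Tnfaip6 and Cd44 over Has2), each gave p = 0.1 in a two-sided exact permutation test (0.1 after Benjamini-Hochberg adjustment), the smallest that 3 against 3 libraries allow. A length scales a ratio equally in every library, so the change between groups does not depend on the gene model, whereas its level does.

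The binders differed from each other. Tnfaip6 and Vcan were lower with Th17 cells, and Cd44 was not called. Tnfaip6 encodes TSG-6, a secreted protein with a Link domain that moves heavy chains of inter-alpha-inhibitor onto hyaluronan (ENSMUSG00000053475, chromosome 2, 52038009 to 52056686, plus strand). Lone libraries held 227, 188 and 208 counts and cocultured libraries 62, 67 and 82. The highest cocultured library was below the lowest lone library by a wide margin. The mean fell from 16.7 ± 1.59 to 5.37 ± 0.819 CPM (SD, n = 3 each), or 3.10-fold lower (edgeR adjusted p = 3.64e-05, log2 fold change −1.63 with SE 0.15). The promoter letters matching AP-1 and STAT, printed above, belong to this gene.

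Vcan encodes versican, a large chondroitin sulfate proteoglycan whose amino-terminal end binds hyaluronan (ENSMUSG00000021614, chromosome 13, 89655312 to 89742509, minus strand). It had 544, 513 and 521 CPM in lone fibroblasts and 309, 324 and 307 CPM after coculture. Each group was tight and the gap between them wide. The mean fell from 526 ± 16.2 to 313 ± 9.06 CPM (SD, n = 3 each), or 1.68-fold lower (edgeR adjusted p = 8.16e-06, log2 fold change −0.75 with SE 0.06). Versican is spliced into forms that differ in the length of their sugar-bearing region, and the annotation lists 8 coding transcripts, which gene counts do not separate. The opposite-strand gene Gm4117, inside the Vcan locus, had at most 35 counts a library.

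Cd44, the principal surface receptor for hyaluronan (ENSMUSG00000005087, chromosome 2, 102811141 to 102901665, minus strand), was the gene with the highest level and the least difference. It had 774, 598 and 622 CPM in lone fibroblasts and 720, 614 and 758 CPM after coculture. The groups overlapped, and lone replicate 1 was the highest library of all. The means were 665 ± 95 and 697 ± 74.6 CPM (SD, n = 3 each), a difference of 0.07 on the log2 scale with SE 0.11 (edgeR adjusted p = 0.662). The 95% interval of −0.18 to 0.32 on the log2 scale leaves room for a fold change between 0.883 and 1.25. Its 8 annotated coding transcripts, among them variant-exon forms, are likewise summed in this count.

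**Figure D3:**
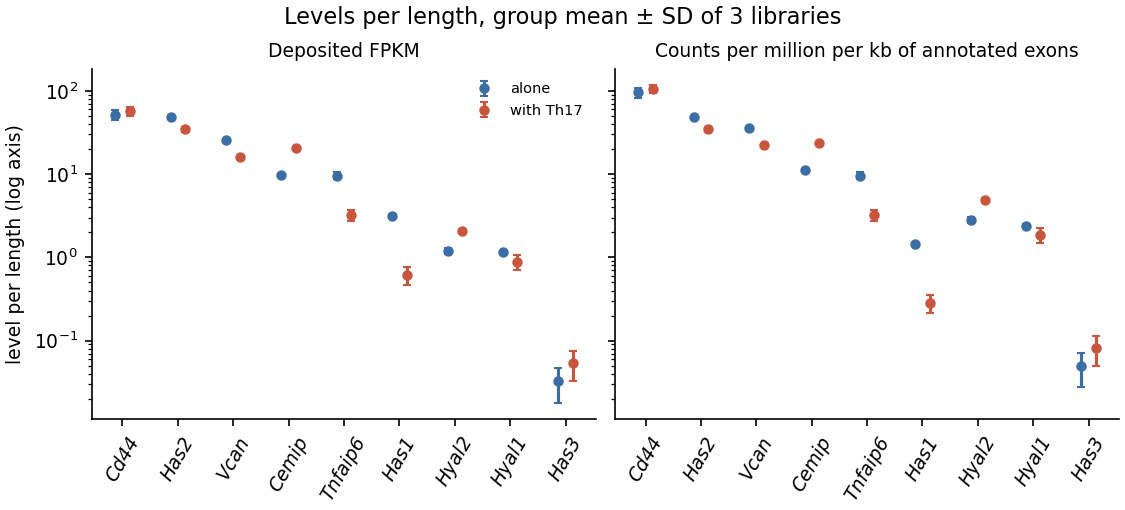
Level of the 9 genes per length on a log axis, as the mean ± SD of 3 libraries, in lone fibroblasts (blue) and after coculture (red), for the deposited FPKM (left) and for counts per kilobase of annotated exons, scaled to library total (right). Cd44 and Has2 lead and Has3 is last on both scales, while Has1 stands above Hyal2 and Hyal1 on the left and below them on the right in lone fibroblasts.

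Compared per length on the deposited FPKM scale, the order in lone fibroblasts was Cd44 (52.0 ± 7.31), Has2 (49.1 ± 0.690), Vcan (25.7 ± 0.745), Cemip (9.62 ± 0.184), Tnfaip6 (9.54 ± 0.914), Has1 (3.12 ± 0.0693), Hyal2 (1.19 ± 0.101), Hyal1 (1.14 ± 0.0502) and Has3 (0.0325 ± 0.0145). In this order Cd44 and Has2, Cemip and Tnfaip6, and Hyal2 and Hyal1 did not differ beyond the spread of their libraries. After coculture Cemip (20.3 ± 0.796) stood above Vcan (16.0 ± 0.368) and Tnfaip6 (3.21 ± 0.503), while Hyal2 (2.09 ± 0.0935) stood above Hyal1 (0.884 ± 0.186) and Has1 (0.612 ± 0.146), the last pair overlapping. Cd44 (57.0 ± 6.44) and Has2 (34.5 ± 2.24) no longer overlapped, and Has3 was at 0.0535 ± 0.0208. The lengths behind these FPKM values are not those of the annotated exons for 7 of the 9 genes. For Hyal2 and Hyal1 the implied lengths were 7784 and 7945 bases against 3293 and 3777 of annotated exons. Per kilobase of annotated exons, Hyal2 (2.81 ± 0.239) and Hyal1 (2.41 ± 0.106) stood above Has1 (1.44 ± 0.0320) also in lone fibroblasts. There Cd44 (95.9 ± 13.5) also stood well above Has2 (49.1 ± 0.690), and Cemip (11.2 ± 0.214) above Tnfaip6 (9.54 ± 0.914). After coculture on that scale, Cemip (23.6 ± 0.923) lay close to Vcan (22.1 ± 0.509), and Hyal2 (4.95 ± 0.221) stood above Tnfaip6 (3.21 ± 0.503). Such ties and orders thus depend on the gene model.

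To place these genes in their pathway, 50 further genes in 5 lists were read from the same fit. Of these, 29 were tested, with 5 higher, 13 lower and 11 not called, where 17.1% of all genes tested were higher and 20.0% lower. The number of higher genes was thus near the share over all genes. The median log2 fold change of the 29 genes was −0.19, against 0.00 for all genes tested. The supply of UDP-sugars, the substrates of the synthases, comprised 8 genes, all tested, of which 4 were lower and 4 were not called. Gfpt2 (log2 fold change −0.40) and Gfpt1 (−0.23) encode the entry enzyme of the hexosamine pathway, Ugdh (−0.35) makes UDP-glucuronic acid, and Ugp2 (−0.24) makes UDP-glucose. Ugdh, for example, had 394, 387 and 397 CPM in lone fibroblasts and 305, 296 and 325 CPM after coculture (SE 0.06, edgeR adjusted p = 0.00131). These were smaller differences than that of Has1.

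Of 11 other turnover genes, 4 were tested, and 2 were higher. Hexa, a lysosomal enzyme subunit that acts in the removal of terminal hexosamines, was at 0.25 on the log2 scale (edgeR adjusted p = 0.0124). Gusb, the lysosomal beta-glucuronidase, was at 0.32 (edgeR adjusted p = 0.0152). Cemip2, a relative of Cemip with reported hyaluronidase activity at the cell surface, was at 0.23 (edgeR adjusted p = 0.0519) and was not called. It is listed under its older symbol Tmem2 and is named here after its values were seen.

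Other binders and heavy chain donors numbered 17, of which 12 fell under the filter on low counts, 2 were higher and 2 lower. The members that rose were Layn, which encodes layilin, another membrane receptor for hyaluronan, and Hapln4, which encodes a link protein known from the brain matrix. Layn had 36.9, 42.3 and 36.9 CPM in lone fibroblasts and 119, 113 and 126 CPM after coculture (edgeR adjusted p = 6.83e-07, log2 fold change 1.63 with SE 0.08). Hapln4 had counts of 31, 22 and 26 when alone and of 128, 124 and 126 with Th17 cells (edgeR adjusted p = 1.27e-05, log2 fold change 2.18 with SE 0.17). In both the groups were far apart. Those that fell were Hmmr (−0.81, edgeR adjusted p = 3.38e-05), a hyaluronan-binding protein that also acts at the mitotic spindle, and Ptx3 (−0.54, edgeR adjusted p = 0.0079), a pentraxin that joins TSG-6 and heavy chains in the matrix.

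Proteases that cleave versican numbered 6, of which 4 were tested, with 2 lower and 2 not called. On the log2 scale Adamts5 was at −0.80 with SE 0.10 and Adamts4 at −0.27 with SE 0.08 (edgeR adjusted p = 0.000226 and 0.0279). Partners of CD44 numbered 8, all tested, with 1 higher and 4 lower. Spp1, the gene of the ligand osteopontin, was at 0.45 with SE 0.06 (edgeR adjusted p = 0.000222). The sheddases Adam17 (−0.48) and Mmp14 (−0.37) and Ezr (−0.40), which links CD44 to actin, were lower (edgeR adjusted p = 0.00051, 0.00975 and 0.00349), beside a Cd44 transcript that was not called.

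**Figure D4:**
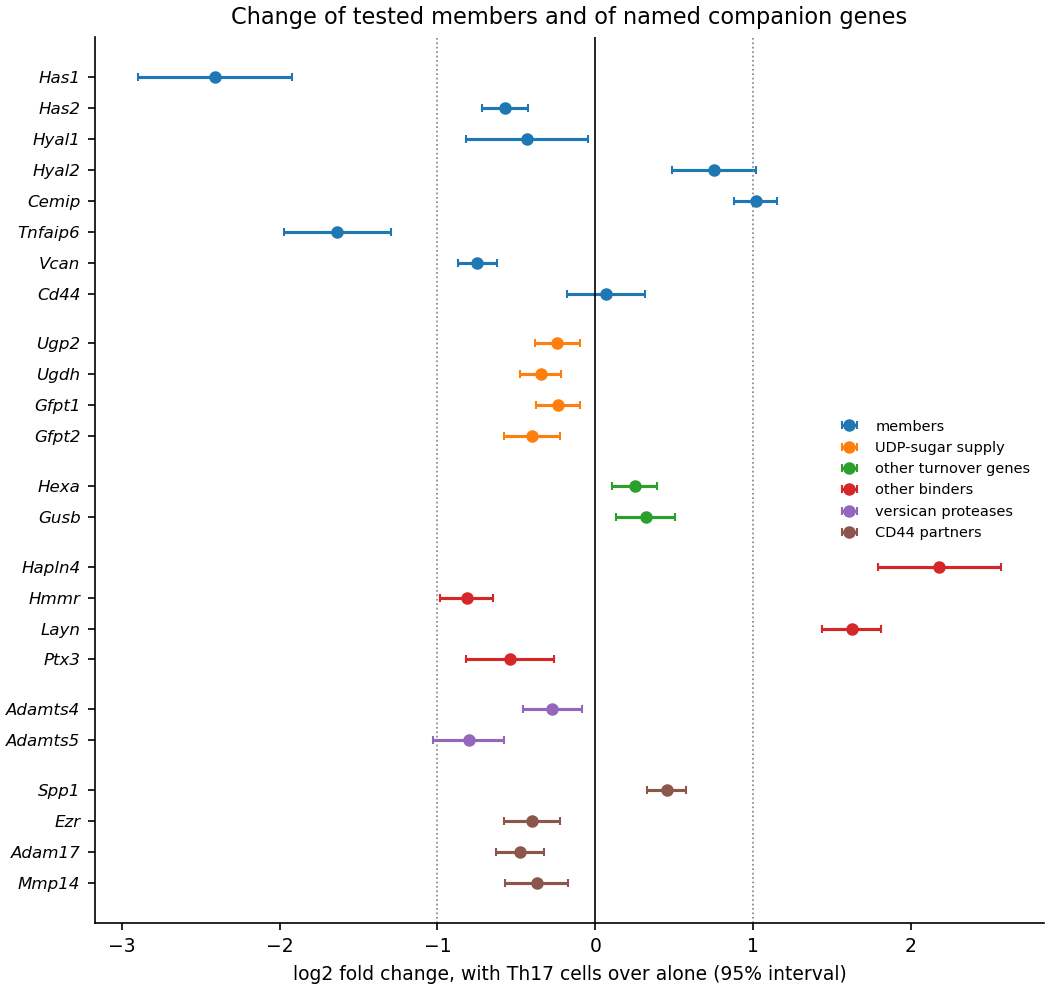
Log2 fold change with Th17 cells over lone fibroblasts (points, horizontal axis) with its 95% interval for the 8 tested genes and for genes named from the 5 further lists, by colour. Dotted lines mark a fold change of 2 in either direction. Has1 and Tnfaip6 lie beyond the lower line, Cemip lies on the upper one, and Layn and Hapln4 lie beyond it.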

How the data were processed

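RNA was measured in 6 libraries prepared with a VAHTS Universal V6 kit and sequenced on an Illumina NovaSeq. According to the submitters' processing notes and methods, the authors aligned reads to mm10 with HISAT2 2.0.4, and the deposited table holds raw counts per gene from StringTie 1.3.3b and, beside them, the authors' FPKM values. Use of strand and the treatment of fragments shared by genes were not given in the sources used here, so overlapping genes are uncertain. The deposited FPKM imply 1 length per gene in all libraries, which for many genes is not the annotated exon length (GENCODE M21), and carry no TMM factor.

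The counts were tested with edgeR 4.0.16 under R 4.3.3 (filterByExpr with a minimum count of 10, TMM, glmQLFit and glmQLFTest, Benjamini-Hochberg adjustment over 13088 genes). CPM use TMM library sizes. The common dispersion was 0.0136. The 9 genes, the lists and the alternatives were chosen with earlier results of these data known, and the exon-length and overlap alternatives after seeing the files. From the lists, at most 4 called genes each were named, those with the largest change and a mean of 100 counts or more in either group. On simulated counts with 200 of 13088 genes changed, edgeR recovered 99.0% of genes with a planted fold of 2. Planted genes left out the lowest mean levels, and every gene had the common dispersion. Recovery of low or more variable genes was therefore not measured. Protein sequences were not analysed here. A gene of the lists is not reported here. Python 3.11.15, pandas 2.3.3 and matplotlib 3.10.9 were used.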

Additional observations from a re-analysis of the deposited data

How the results depend on the processing

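The 8 tested genes kept their direction under 14 alternatives (relative log expression, library size only, upper quartile, DESeq2 1.42.0, no filter, at least 10 counts in every library, a replicate block, limma 3.58.1 on log2(FPKM + 1), and leaving out each of the 6 libraries), and all but Hyal1 kept their side of the threshold. Log2 fold changes ran from −2.60 to −1.36 for Has1, −0.60 to −0.50 for Has2, 0.50 to 0.82 for Hyal2, 0.99 to 1.08 for Cemip, −1.75 to −1.33 for Tnfaip6, −0.77 to −0.65 for Vcan and 0.00 to 0.19 for Cd44, the smallest size for Has1 coming from limma on log2(FPKM + 1), whose pseudocount shrinks low genes. Hyal1 ran from −0.61 to −0.19, the last also from limma on log2(FPKM + 1), and from −0.61 to −0.31 when libraries were left out. It was called only without cocultured replicate 1 (−0.61, edgeR adjusted p = 0.0182). With the fold limit, 1 gene was higher and 2 lower. Hyal1, the only one of these genes to overlap another on its strand, was not called. Leaving it out therefore could not change the counts of 2 higher and 4 lower.

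Same-numbered libraries did not deviate together (r = 0.0157, −0.0256 and −0.0036), so the numbers were not taken as pairs. With a replicate block, 2 of the genes were higher and 4 lower, Has1 had −2.42 and Cemip 1.02, and no call among them changed.

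Among the further genes, 5 were called higher, from 3 without lone replicate 1 to 6 without cocultured replicate 3. The 13 called lower fell to as few as 9, without lone replicate 3. Ugp2, Gfpt1, Adamts4, Hexa and Gusb lost their call under 5, 3, 5, 1 and 2 of the alternatives. Cemip2 gained one under 6. The Has1 share of the synthases was 3.03% in lone fibroblasts and 0.872% after coculture from counts not scaled to length, and 2.85% and 0.819% per kilobase of annotated exons. The Has2 share was 96.8% and 98.8%, and 97.1% and 98.9%. Depth limits Has3, at 2 to 9 counts a library, and Has1, at 13 to 20 counts after coculture, most.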
